A study of Oryctolagus cuniculus with 34 samples.

Results

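COL4A3, COL6A2, COL6A6, COL23A1 and COL25A1 encode collagens of the basement membrane and of other non-fibrillar matrix, and their RNA was measured in rabbit supraspinatus muscle after rotator cuff repair. They are 5 of the 23669 genes in the count table, taken by name and gene identifier, with earlier results of these data known. All 5 were among the 12937 genes tested, those with a CPM (counts scaled to a common library total) above 1 in at least 1 library. On that plain scale, before the TMM factors that enter all levels given below, COL25A1 passed 1 CPM in 6 of 16 repair libraries and in 0 of 17 control libraries, so it entered the test through the repaired muscle only, and a difference in that direction was built into its entry.

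Collagens are triple helices of 3 alpha chains, and the non-fibrillar families do not build the thick fibrils of tendon and scar. Collagen IV forms the sheet-like network of the basement membrane that wraps each muscle fibre and capillary, and COL4A3 encodes a chain that trimerises with those of COL4A4 and COL4A5. Collagen VI forms beaded microfibrils next to that basement membrane; COL6A2 encodes a core chain, mutated in Bethlem and Ullrich muscle disease, and COL6A6 a long chain that can take the place of the alpha 3 chain. COL23A1 and COL25A1 encode transmembrane collagens whose ectodomains can be shed, and COL25A1, made by muscle fibres, is needed for motor axons to enter developing muscle.

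Left supraspinatus tendons of female New Zealand White rabbits, about 6 months old, were cut, left for 8 weeks and then repaired, and muscle was taken at 1, 2, 4 or 8 weeks after repair. All repaired muscle therefore carries both the tenotomy and the repair. The control is the right supraspinatus of the same animal, unoperated by the study's methods, although the labels speak of a sham skin cut. An effect of the surgery on the opposite limb would therefore lie in the control arm and enter each difference, which was not tested. Only an effect on the whole animal is shared by both arms. Each arm held 4 libraries at 1 week, 5 at 2 weeks and 4 at 4 weeks. The arms of 8 weeks held 3 repair libraries and 4 control libraries. A single piece of the posterior lateral muscle, the region most affected in this model, was sequenced per shoulder, and no muscle was measured between tenotomy and repair. The left library of rabbit 3 at 8 weeks was left out, except where a setting with all 34 libraries is named. The study's methods report that an experimental sample of 8 weeks was dropped at read quality control, without naming the rabbit.

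Library totals on genes ran from 9220035 to 28395188 counts in the 33 libraries, with a median of 19343431 in the sample series that holds 1 and 8 weeks and 10625163 in the series that holds 2 and 4 weeks. Differences between times that cross these series cannot be told apart from the series. Muscle fibre markers (TNNT3, PYGM and MYOM2) were detected in every library. Their sum was lowest, at 2461 CPM, in the 1-week repair library of rabbit 6, against 19647 CPM in its control and 10806 to 24853 CPM in the other 3 repair libraries of 1 week. A pair of repair libraries at 2 weeks, from rabbits 59 and 62, stood apart from the other 3: their summed fibrillar collagens were 55391 and 14158 CPM against 405 to 1339, their fibroblast markers 3823 and 2167 CPM against 316 to 700, their macrophage markers 438 and 113 CPM against 6.36 to 19.2, and their muscle fibre markers 5485 and 8647 CPM against 17966 to 26600. Left out together, a choice made after seeing the data, they took the number of genes called at 2 weeks in limma-voom from 2053 to 16. In such bulk RNA, a change in the number of cells of a type and a change in RNA per cell cannot be told apart.

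All 5 genes were higher in repaired than in control muscle when the 4 times were averaged. For COL25A1 that direction was favoured by its entry through repair libraries only, so its call is not counted as support. A log2 fold change (log2FC) here is the difference of 2 group means of log2 CPM after TMM scaling, fitted by limma-voom over all genes, and a gene was called at a Benjamini-Hochberg adjusted p under 0.05. The mean log2FC was 0.92 for COL4A3 (SE 0.17, adjusted p = 0.000318), 1.17 for COL6A2 (SE 0.29, adjusted p = 0.00330), 1.90 for COL6A6 (SE 0.69, adjusted p = 0.0295, lost without rabbits 59 and 62 at 1.31, adjusted p = 0.0520, or without the control of rabbit 66, adjusted p = 0.0527), 1.00 for COL23A1 (SE 0.19, adjusted p = 0.000317) and 2.57 for COL25A1 (SE 0.52, adjusted p = 0.000626). Of all genes tested, 22.4% were called higher and 17.7% lower in this comparison, and 29.3% of the 3310 that carry a symbol. At single times fewer were called. At 1 week they were 2 of 5 (COL4A3 and COL23A1), against 6.81% of all genes called higher, and at 2 weeks 2 of 5 (COL6A2 and COL23A1), against 7.95%. Without the repair libraries of rabbits 59 and 62, limma-voom called 0 of 5 at 2 weeks, against 0.0561% of genes called higher. In that fit 2 of 5 (COL23A1 and COL25A1) were higher at an unadjusted p under 0.05, against 7.51% of genes. COL25A1 had entered through repair libraries only. Later, at 4 and 8 weeks, 0 of 5 were called, where 0.0773% and 0.00773% of genes were called higher.

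Both shoulders came from the same animal, and a fit with the rabbit as a block called more of these genes at the early times, as it did of all genes. It called 5 at 1 week, against 14.8% of genes called higher, adding COL6A2 (log2FC 1.74, adjusted p = 0.0402), COL6A6 (2.90, adjusted p = 0.00506) and COL25A1 (1.93, adjusted p = 0.0353), and 4 at 2 weeks, against 19.2%, adding COL6A6 (3.08, adjusted p = 0.00509) and COL25A1 (2.79, adjusted p = 0.00769). It called 0 at 4 and at 8 weeks (1.82% and 0.00773% of genes) and 5 for the mean (26.5%). COL25A1 is in its counts at 1 week, at 2 weeks and for the mean. COL25A1 entered through repair libraries only, so these calls of it are not counted as support. With the rabbit as a random effect instead, 3 were called at 1 week and 3 at 2 weeks, against 1463 and 1684 of the 12937 genes called higher. That fit did not call COL6A6 (2.59, adjusted p = 0.0563) or COL25A1 (2.04, adjusted p = 0.0628) at 1 week, nor COL6A6 at 2 weeks (1.94, adjusted p = 0.216). Its 3 at 2 weeks included COL25A1, whose call is likewise not counted as support. Leaving out rabbits 59 and 62 brought the 2-week calls to 0 of 5 with the block, with the random effect and in edgeR, where 1, 43 and 78 of 12471 genes were called higher. In these fits 3, 2 and 3 members were higher at an unadjusted p under 0.05, COL25A1 among them each time. Of all genes, 1009, 1169 and 1190 were higher at that p. DESeq2 then called 1 (COL23A1, adjusted p = 0.0421), against 1.90%, and gave COL25A1 no adjusted p. COL6A6 had a log2FC of 0.37 with the block (adjusted p = 0.893) and was below 0 in the other 3 fits. The 0 at 4 weeks and at 8 weeks in limma stand beside 2 and 1 members higher at an unadjusted p under 0.05. Of all genes, 8.76% and 1.78% were higher at that p. COL25A1, which entered through repair libraries only, is not counted as support here either. It was 1 of the 2 members at 4 weeks, beside COL4A3, and the only member at 8 weeks. At these times edgeR called 0 and 0, against 1.71% and 0.00773% of genes called higher, and DESeq2 called 1 (COL4A3) and 0, against 3.30% and 0.0232%.

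**Figure D1:**
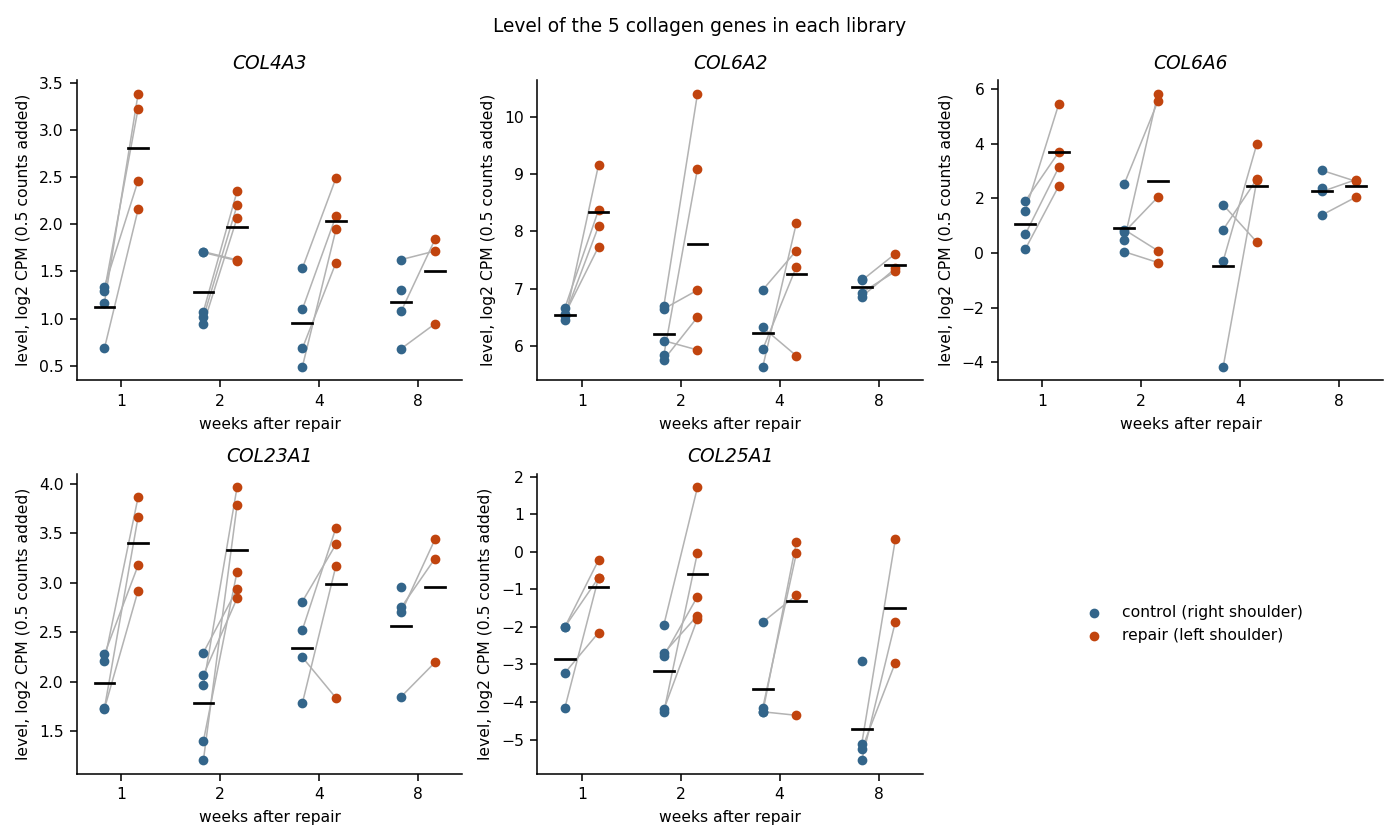
Level of each of the 5 genes in each of 33 libraries, as log2 CPM with 0.5 counts added, by weeks after repair; blue points are right control muscle, red points left repaired muscle, grey lines join the shoulders of a rabbit and bars are group means. For COL4A3 at 1 week the 4 repair libraries (4.44 to 10.4 CPM) lie above the 4 controls (1.57 to 2.49 CPM), while for COL6A2 and COL6A6 at 2 weeks only the libraries of rabbits 59 and 62 lie far above the controls.

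COL4A3 was the clearest of the 5 at 1 week. Repaired muscle of rabbits 5, 6, 7 and 8 had 10.4, 5.50, 9.36 and 4.44 CPM, and their control muscle had 2.21, 2.49, 2.43 and 1.57 CPM. The groups did not overlap, which held for 16.1% of all genes at this time, and each rabbit was higher on the left. The means were 7.43 ± 2.91 CPM (SD, n = 4) and 2.18 ± 0.422 CPM (SD, n = 4), and the log2FC was 1.65 (SE 0.28, 95% interval 1.08 to 2.23, adjusted p = 0.00120).

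At 2 weeks the repair values of COL4A3 were 3.05, 4.14, 3.01, 5.07 and 4.56 CPM in rabbits 59, 60, 61, 62 and 64, against 3.22, 1.86, 3.20, 2.05 and 1.96 CPM in their controls. Rabbits 59 and 61 were slightly lower on the left and the other 3 2.22 to 2.47 times as high, and the groups overlapped (log2FC 0.68, SE 0.33, adjusted p = 0.137). The log2FC was again 0.68 (adjusted p = 0.430) without rabbits 59 and 62. At 4 weeks rabbits 63, 66, 67 and 68 had 5.58, 3.81, 2.98 and 4.21 CPM after repair and 2.84, 1.35, 1.55 and 2.09 CPM in the control. All 4 repair libraries lay above all 4 controls, as for 5.19% of genes, but the difference did not pass the adjustment (log2FC 1.05, SE 0.40, adjusted p = 0.200). At 8 weeks the repair values were 3.54, 3.26 and 1.90 CPM in rabbits 1, 2 and 4, inside or near the control range of 1.58 to 3.06 CPM, and the log2FC of 0.30 had an interval of -0.42 to 1.01.

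The difference of COL4A3 was thus 1.36 log2 units larger at 1 than at 8 weeks (95% interval 0.44 to 2.28), times that belong to the same sample series. Its unadjusted p was 0.00523 and its adjusted p 0.827, so the difference between times did not pass over all genes. COL4A3 did not stand far apart in rabbits 59 and 62 at 2 weeks. Its repair level was 3.05 CPM in rabbit 59 and 5.07 CPM in rabbit 62, the highest of that group, against 3.01 to 4.56 CPM in the other 3.

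Of the other network-forming chains with a symbol, COL4A1, a core chain of every basement membrane, was called higher at 1 week (log2FC 1.35, adjusted p = 0.0356) and at 2 weeks (1.36, adjusted p = 0.0171). COL4A5, a chain of the trimer that includes COL4A3, was also called at both times, with a log2FC of 0.76 (adjusted p = 0.0230) and 1.02 (adjusted p = 0.0174). Neither was called at 2 weeks without rabbits 59 and 62 (COL4A1 0.48, adjusted p = 0.357, and COL4A5 0.78, adjusted p = 0.248). COL8A2, a short-chain network collagen, had a mean log2FC of 2.02 (adjusted p = 0.0247) and was called at no single time. In the RefSeq annotation of another rabbit assembly COL4A3 lies next to COL4A4, the remaining chain of its trimer; no identifier was matched to COL4A4 here, and its level was not analysed.

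COL6A2 was higher in repaired muscle at 1 week in every rabbit, from 2.26 times its control in rabbit 5 to 6.55 times in rabbit 7. Repair values were 213, 331, 572 and 272 CPM in rabbits 5, 6, 7 and 8, against 94.1, 101, 87.3 and 92.5 CPM in control. The control libraries were tight and the repair libraries spread over a wide range without reaching them, as for 16.1% of genes. The log2FC was 1.77 (SE 0.64), with an adjusted p of 0.0606 that missed the threshold here and passed it with the rabbit as a block, as above.

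At 2 weeks COL6A2 was called (log2FC 1.50, SE 0.51, 95% interval 0.46 to 2.54, adjusted p = 0.0445), and this call rested on 2 rabbits. Repair values were 1350.3 CPM in rabbit 59 and 546 CPM in rabbit 62, but 90.7, 126 and 61.05 CPM in rabbits 60, 61 and 64. Their controls had 104, 57.3, 54.2, 100.4 and 68.3 CPM, in the same order. Of the last 3, rabbits 60 and 64 lay within the control range, rabbit 61 lay above it, and rabbit 64 was lower on the left. Without rabbits 59 and 62 in the repair arm, the log2FC was 0.26 (adjusted p = 0.794). These libraries also held more fibroblast, macrophage and tendon marker RNA and less muscle fibre marker RNA, and the part of cell composition in the value was not tested. The call was also lost when any 1 of these controls was left out, with the log2FC still 1.39 to 1.62 (adjusted p 0.05005 to 0.0910), or the repair library of rabbit 59 (log2FC 0.91, adjusted p = 0.210) or 62 (1.18, adjusted p = 0.131).

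At 4 weeks COL6A2 had 284, 167, 203 and 56.8 CPM after repair in rabbits 63, 66, 67 and 68, and 49.8, 61.6, 126 and 80.2 CPM in control. The first 3 rabbits were higher on the left and rabbit 68 was lower (log2FC 1.03, SE 0.55, adjusted p = 0.356). The repair library of rabbit 68 also had the lowest fibroblast and macrophage marker sums of its group, 301 and 2.96 CPM. At 8 weeks repair values of 158, 164 and 196 CPM lay above the 4 controls at 122, 116, 144 and 141 CPM without overlap, as for 4.24% of genes, but the difference was small (log2FC 0.39, SE 0.65, adjusted p = 0.999).

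COL6A6 was detected at low and very variable levels. Its expected counts were whole numbers in 15 of 33 libraries only, while the other 4 genes had whole counts in all 33. A sharing of reads with other loci, which could make its values less certain, was not tested. At 1 week repair values were 5.49, 12.9, 44.2 and 8.83 CPM in rabbits 5, 6, 7 and 8, against 1.07, 3.71, 2.88 and 1.57 CPM in control. The groups did not overlap, as for 16.1% of genes, and rabbit 7, which also had the most fibrillar collagen RNA of its group (17507 CPM), was by far the highest. The log2FC was 2.56 (SE 1.06, adjusted p = 0.0956).

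At 2 weeks COL6A6 had 46.7 and 56.4 CPM in the repaired muscle of rabbits 59 and 62, and 1.01, 4.08 and 0.745 CPM in that of rabbits 60, 61 and 64. Controls of rabbits 59, 62, 60, 61 and 64 had 5.71, 1.34, 1.76, 1.65 and 0.980 CPM. As for COL6A2, this pair of libraries was far above the others, and the other 3 lay below the highest control. The log2FC of 1.98 (SE 1.29, adjusted p = 0.263) turned to -0.38 (adjusted p = 0.935) without that pair. At 4 weeks repair values were 15.8, 6.26, 6.47 and 1.27 CPM and control values 0.765, 0, 1.76 and 3.34 CPM in rabbits 63, 66, 67 and 68. Rabbit 68 was again the one lower on the left (log2FC 2.87, SE 1.92, adjusted p = 0.467). The log2FC ran from 1.66 to 3.62 with 1 library of that time left out, and the control of rabbit 66 held no count. At 8 weeks repair values of 6.12, 6.38 and 4.09 CPM fell among controls at 8.09, 4.73, 5.16 and 2.61 CPM, with a log2FC of 0.19 and a wide interval of -1.94 to 2.31.

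Across the 33 libraries the log2 CPM of COL6A2 and COL6A6 had a Pearson r of 0.85, and of 0.80 after group means were removed. It was the highest r among the 10 pairs of these 5 genes, followed by COL6A2 and COL23A1 (0.77, and 0.61 within groups). The libraries share their composition and scaling, so these values describe the libraries only. Of the other collagen VI genes, COL6A1 lies next to COL6A2 and COL6A5 next to COL6A6 in the RefSeq annotation. Neither was matched to an identifier of the count table with the symbols used here.

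**Figure D2:**
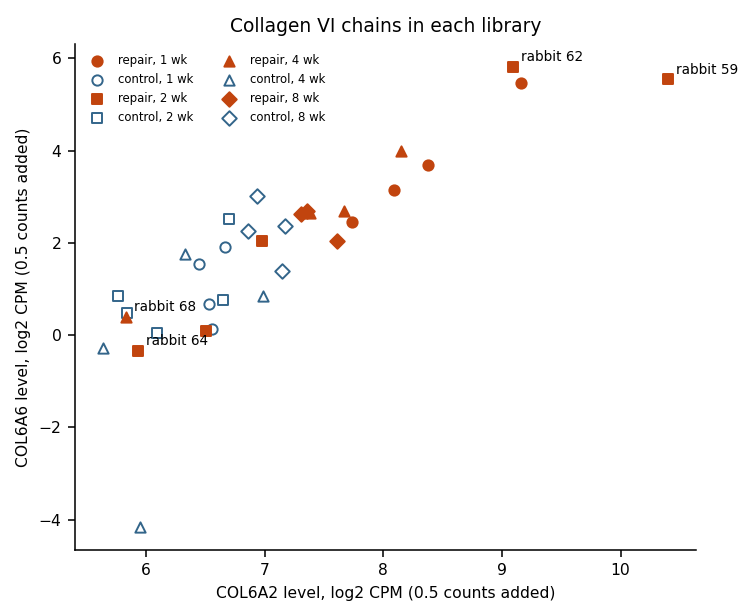
Level of COL6A6 against that of COL6A2 in each of 33 libraries, both as log2 CPM with 0.5 counts added; filled symbols are repaired and open symbols control muscle, with a shape for each time. The repair libraries of rabbits 59 and 62 at 2 weeks lie at the upper right, those of rabbits 64 and 68 lie among the controls at the lower left, and r over all libraries is 0.85.

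COL23A1 was called at both early times and was higher on the left in all 9 rabbits of those times. At 1 week the repair values were 7.54, 14.5, 9.01 and 12.6 CPM in rabbits 5, 6, 7 and 8, and the control values 3.28, 4.60, 4.83 and 3.28 CPM. The lowest repair library lay above the highest control, as for 16.1% of genes, with means of 10.9 ± 3.22 CPM (SD, n = 4) and 4.00 ± 0.832 CPM (SD, n = 4). The log2FC was 1.38 (SE 0.34, 95% interval 0.69 to 2.07, adjusted p = 0.0105). With all 34 libraries the call was lost (1.39, adjusted p = 0.0680). The highest repair value was that of rabbit 6, whose muscle fibre marker sum was the lowest; without it the log2FC was 1.22 (adjusted p = 0.0341), and the part of cell composition was not tested.

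At 2 weeks the repair values of COL23A1 were 15.5, 8.59, 7.58, 13.7 and 7.12 CPM in rabbits 59, 60, 61, 62 and 64, against 3.84, 2.59, 4.85, 2.26 and 4.14 CPM in control. The groups did not overlap, as for 4.10% of genes, and the log2FC was 1.58 (SE 0.39, 95% interval 0.79 to 2.37, adjusted p = 0.0138). Rabbits 59 and 62 were the highest again, but here the other 3 repair libraries stayed above every control. Without that pair the log2FC was 1.17 (adjusted p = 0.220), and without rabbit 59 alone 1.41 (adjusted p = 0.0512). With the libraries of that time alone the call was also lost (1.57, adjusted p = 0.106).

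At 4 weeks COL23A1 had 8.96, 10.4, 11.7 and 3.52 CPM after repair and 3.39, 6.95, 5.69 and 4.70 CPM in control in rabbits 63, 66, 67 and 68, and rabbit 68 alone was lower on the left (log2FC 0.69, SE 0.41, adjusted p = 0.406). At 8 weeks the 3 rabbits with both shoulders were each higher on the left, with 10.8, 4.55 and 9.44 CPM against 6.47, 3.58 and 6.71 CPM, and rabbit 3 had a control of 7.72 CPM. The groups overlapped and the log2FC was 0.36 (SE 0.35, adjusted p = 0.999). The difference was 1.02 log2 units larger at 1 than at 8 weeks (95% interval 0.02 to 2.02), with an unadjusted p of 0.0452 and an adjusted p of 0.827.

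COL25A1 was close to the limit of detection, with 189 counts in all over 33 libraries. No count was seen in 8 of 17 control and 1 of 16 repair libraries, and 3 counts, the most that a library with no count allows for, correspond to between 0.106 and 0.336 CPM. At 1 week repair libraries had 4, 23, 17 and 13 counts, or 0.200, 0.837, 0.600 and 0.595 CPM, in rabbits 5, 6, 7 and 8. Their controls had 1, 4, 1 and 3 counts, or 0.0713, 0.222, 0.0374 and 0.214 CPM. Only the lowest repair library reached into the control range. The log2FC was 2.05 (SE 0.87, adjusted p = 0.102), or 1.80 (adjusted p = 0.201) without the repair library of rabbit 6, and pooled counts gave a ratio of 4.72 (57 against 9 counts, counting interval 2.32 to 10.8).

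At 2 weeks the repair libraries of COL25A1 had 15, 32, 4, 4 and 3 counts in rabbits 59, 60, 61, 62 and 64, or 0.952, 3.23, 0.389, 0.274 and 0.248 CPM. The controls had 0, 2, 1, 1 and 0 counts, at most 0.207 CPM. Each repair value was above each control value, as for 4.10% of genes, and the highest was rabbit 60, not rabbit 59 or 62. The controls of rabbits 59 and 64, with no count, allow up to 0.312 and 0.327 CPM, more than the repair values of rabbits 62 and 64, so a full separation was not detectable at this depth. The log2FC was 2.53 (SE 0.93, adjusted p = 0.0594). It was called without the repair library of rabbit 61 (adjusted p = 0.0495) or 64 (adjusted p = 0.0313). The log2FC was 2.68 (adjusted p = 0.274) without rabbits 59 and 62.

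At 4 weeks repair libraries of rabbits 63, 66, 67 and 68 held 4, 11, 16 and 0 counts of COL25A1, or 0.398, 0.932, 1.16 and 0 CPM, and only rabbit 63 had counts in its control, 2 of them or 0.218 CPM. The pooled ratio was 12.6, with a counting interval of 3.21 to 109. At 8 weeks rabbits 1, 2 and 4 had 1, 20 and 5 counts after repair, or 0.0862, 1.23 and 0.250 CPM, and the controls had 2 counts in rabbit 3 (0.106 CPM) and 0 in the other 3. The pooled ratio of 21.4 had a counting interval of 5.35 to 186 and rested mostly on rabbit 2. These intervals cover counting error only, and a fitted log2FC against such low controls (2.41 at 4 weeks and 3.30 at 8 weeks) depends on the 0.5 counts added. Neither passed the adjustment (adjusted p = 0.303 and 0.999), while the mean over the times did. The left value was higher in 15 of 16 rabbits, in 7 of which the control had no count, with no count on either side in rabbit 68. COL25A1 passed the CPM filter through repair libraries only. Its call for the mean and this tally are therefore no test of whether it was higher after repair.

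**Figure D3:**
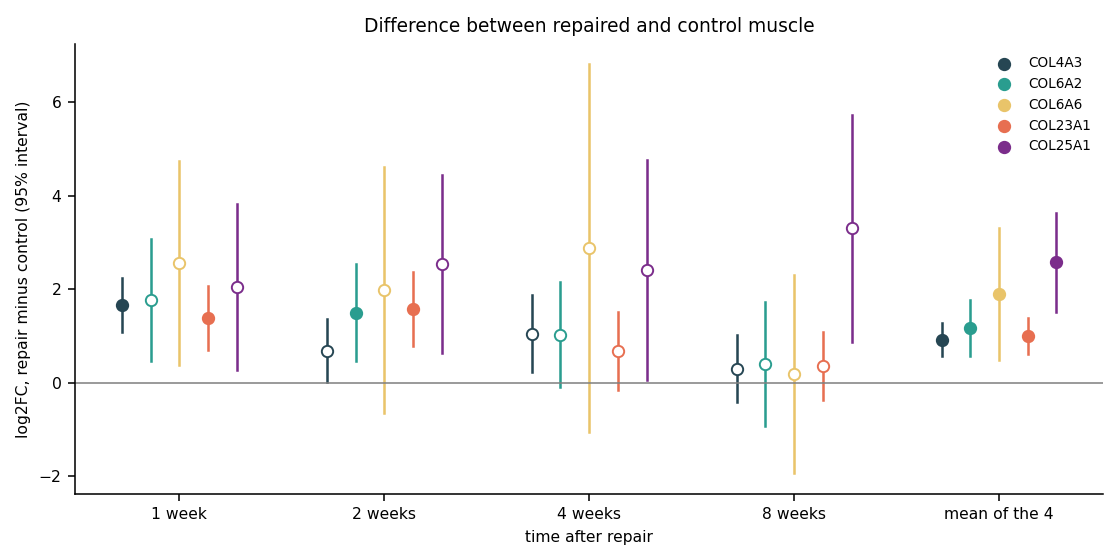
Log2FC of repaired against control muscle for the 5 genes at each time and for the mean of the 4 times, with 95% intervals from limma-voom; filled points have an adjusted p under 0.05. COL4A3 lies at 1.65 at 1 week and at 0.30 at 8 weeks, COL6A6 and COL25A1 have wide intervals at each single time, and all 5 means are filled and above 0.

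The order of the 4 times differed between the genes, but no difference between times passed the test. In an F test of whether the repair effect depended on time, limma called 0 of 5 members and 0 of 12937 genes; 1 member (COL4A3, unadjusted p = 0.0312) and 689 genes had an unadjusted p under 0.05, edgeR called 0 genes and DESeq2 called 2, neither a member. The mean effect was also fitted within each sample series. Over 1 and 8 weeks COL4A3, COL23A1 and COL25A1 were called (adjusted p = 0.0119, 0.0315 and 0.0288), against 3.68% of all genes, while COL6A2 (adjusted p = 0.132) and COL6A6 (adjusted p = 0.234) were not. Over 2 and 4 weeks COL4A3, COL6A2, COL23A1 and COL25A1 were called (adjusted p = 0.0169, 0.0162, 0.00634 and 0.0169), against 14.1%, and COL6A6 was not (adjusted p = 0.114). Without rabbits 59 and 62, COL6A2 lost that call (log2FC 0.65, adjusted p = 0.0780), while COL4A3, COL23A1 and COL25A1 kept it (adjusted p = 0.0362, 0.0289 and 0.0364), against 8.24% of genes. COL25A1 entered the test through repair libraries only, so its calls in either series are not counted as support.

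In control muscle, COL6A2 ran from 87.3 to 144 CPM (median 109) in the series of 1 and 8 weeks (n = 8) and from 49.8 to 126 CPM (median 68.3) in that of 2 and 4 weeks (n = 9). COL4A3 controls had medians of 2.32 and 2.05 CPM in these series, COL6A6 3.30 and 1.65 CPM, and COL23A1 4.71 and 4.14 CPM. The ranges overlapped for each of these 4 genes, and COL25A1 controls had at most 0.222 CPM in either series. Time after repair and series cannot be told apart in these values.

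Other collagens with a symbol were mostly higher in repaired muscle too. Symbols could be had here for part of the genes only, although the supplement describes a mapping for all genes recorded, so the lists are incomplete. Some symbols come from a table ordered by the study's own expression modules, so these counts are not independent evidence. Of 14 collagens outside the 5 genes, 12 were called for the mean effect, against 22.4% of all genes and 29.3% of those with a symbol. At 1 week 2 were called, against 6.81% and 7.92%, and at 2 weeks 5, against 7.95% and 12.6%, with 0 later. Without rabbits 59 and 62, limma-voom called 0 of the 14 at 2 weeks, against 0.0561% of genes and 0.121% of those with a symbol. In that fit 2 of the 14 were higher at an unadjusted p under 0.05, against 7.51% of genes. For the mean 12 were called, against 19.6% and 25.7%. With all 33 libraries, the median log2FC of the 14 was 1.75, 1.89, 1.48 and 0.33 at the 4 times in turn, against 0.05, 0.06, 0.05 and 0.01 over all genes, and at 2 weeks it was 0.55 without that pair, against 0.02. Among the other non-fibrillar chains, COL12A1 and COL16A1, which coat fibrils, had a mean log2FC of 2.29 (adjusted p = 0.00259) and 1.69 (adjusted p = 0.00450), and COL28A1, a von Willebrand domain collagen, 1.28 (adjusted p = 0.00988). COL15A1, a basement membrane multiplexin, had 0.27 (adjusted p = 0.196) and COL21A1 1.08 (adjusted p = 0.109), and neither was called for the mean of the 4 times or at a single time. Without rabbits 59 and 62 their means were 0.11 and 0.62.

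All 6 fibrillar chains with a symbol were called for the mean effect, against 22.4% of all genes and 29.3% of those with a symbol, with a log2FC of 2.38 for COL1A1 and 2.19 for COL1A2 (the chains of collagen I), 1.52 for COL3A1, 1.03 for COL5A1, 1.04 for COL5A3 and 4.21 for COL11A1. At 2 weeks COL1A1, COL1A2 and COL5A3 were called, against 7.95% and 12.6%, and at the other times none of the 6. Without rabbits 59 and 62, none of the 6 was called at 2 weeks (COL1A1 0.43, adjusted p = 0.777; 0 had an unadjusted p under 0.05) and all 6 were for the mean, against 19.6% and 25.7%, with COL5A1 at 0.63 (adjusted p = 0.0302). The median log2FC of the 6 was 2.70 at 1 week and 0.77 at 8 weeks.

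Basement membrane glycoproteins were called for the mean effect in 7 of 10 table entries from 9 symbols, against 22.4% of all genes and 29.3% of those with a symbol, with a median log2FC of 0.74 (0.04 over all genes). LAMA3, a laminin alpha chain, had a mean log2FC of 1.24 (adjusted p = 0.000149), NID2, which links laminin to collagen IV, 1.03 (adjusted p = 0.000511), and PXDN, the peroxidase that cross-links collagen IV, 1.12 (adjusted p = 0.000923); these 3 were called at 1 and at 2 weeks. SPARC, a collagen-binding glycoprotein (1.23, adjusted p = 0.00345), and LAMB1, a laminin beta chain (0.84, adjusted p = 0.00281), were called at 2 weeks, as was 1 of the 2 entries of NID1 (means of 0.62 and 0.63). HSPG2, which encodes perlecan (0.42, adjusted p = 0.0582), LAMA2, the main laminin alpha chain of muscle fibres (0.40, adjusted p = 0.0889), and NTN4 (0.15, adjusted p = 0.249) were not called for the mean or at any single time. Their means were 0.26, 0.24 and 0.06 without rabbits 59 and 62. Without rabbits 59 and 62, limma-voom called 0 of the 10 entries at 2 weeks, where 1 (LAMA3, log2FC 1.26, adjusted p = 0.109) was higher at an unadjusted p under 0.05, against 7.51% of genes. It called 7 for the mean, with the median log2FC of the list at 0.48 and the entries of NID1 at 0.35 and 0.34, against the same shares as for the fibrillar chains.

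**Figure D4:**
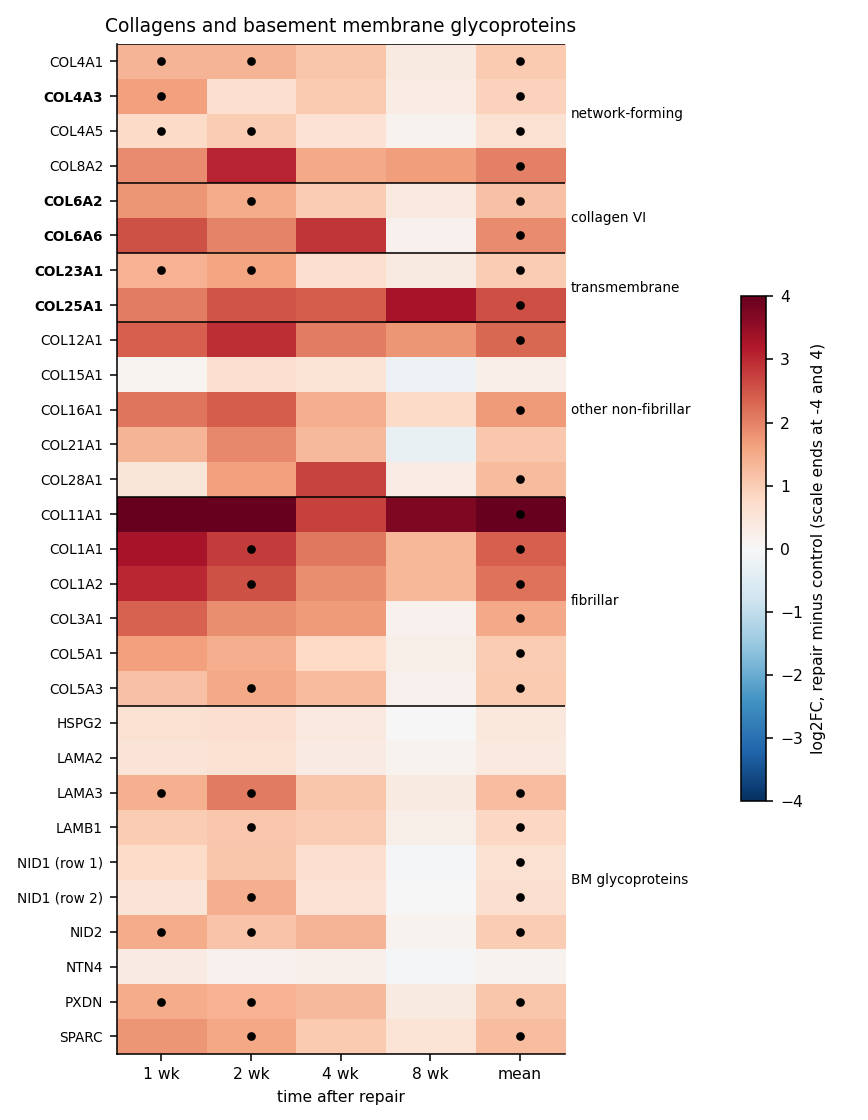
Log2FC of repaired against control muscle for each collagen and basement membrane glycoprotein with a symbol, by time and for the mean; red is higher after repair, dots mark an adjusted p under 0.05, BM stands for basement membrane and the 5 genes described here are in bold. The colour scale ends at -4 and 4, which COL11A1 passes, and the 8-week column holds no dot.

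Of 11 enzymes and chaperones of collagen processing, 8 were called higher for the mean effect, against 22.4% of all genes and 29.3% of those with a symbol, among them ADAMTS3, which removes procollagen propeptides (log2FC 2.81, adjusted p = 0.000206), and PPIB, a prolyl isomerase of the procollagen fold (0.89, adjusted p = 0.00367). Of 12 receptors for collagen and laminin, 6 were called higher, against the same shares, including ANTXR2, a receptor that binds collagens IV and VI (0.98, adjusted p = 0.000624), and ITGA6, a laminin-binding integrin chain (0.58, adjusted p = 0.00164). DAG1, which encodes dystroglycan, was the 1 receptor called lower (-0.27, adjusted p = 0.00493), against 17.7% of all genes. Without rabbits 59 and 62, 8 of the 11 and 5 of the 12 were called higher, against 19.6% of all genes and 25.7% of those with a symbol. The call lost was that of ITGA3, a laminin-binding integrin chain (0.28, adjusted p = 0.0781).

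Markers of other cell types were measured as well. For the mean effect, in which 22.4% of all genes and 29.3% of those with a symbol were called higher, 4 of 5 fibroblast markers were called higher, with PDGFRB (log2FC 0.69, adjusted p = 0.00938) and FBN1 (1.05, adjusted p = 0.00977) the smallest adjusted p, as were 2 of 2 adipocyte markers (ADIPOQ 1.33, adjusted p = 8.50e-05, and LIPE 1.58, adjusted p = 0.000296) and 4 of 4 tendon cell markers (CILP 1.41, adjusted p = 0.000140, and THBS4 2.32, adjusted p = 0.00162). Endothelial markers were called in 1 of 5 (ROBO4 0.27, adjusted p = 0.0321; VWF 0.37, adjusted p = 0.0689) and macrophage markers in 0 of 6 (ITGAM 1.09, adjusted p = 0.0747; CSF1R 1.14, adjusted p = 0.0789), and 1 of 3 muscle fibre markers was called lower, against 17.7% of genes (MYOM2 -0.57, adjusted p = 0.0481; TNNT3 -0.52, adjusted p = 0.208). The calls of ROBO4 (0.24, adjusted p = 0.0524) and MYOM2 (-0.45, adjusted p = 0.0928) were lost without rabbits 59 and 62. Those of the fibroblast, adipocyte and tendon cell markers stayed at 4, 2 and 4, against 19.6% of all genes and 25.7% of those with a symbol. In that fit VWF was at 0.21, ITGAM at 0.73, CSF1R at 0.63 and TNNT3 at -0.35. At 1 week summed fibroblast markers ran from 864 to 1524 CPM after repair and from 580 to 805 CPM in control, and muscle fibre markers from 2461 to 24853 CPM and from 19647 to 26731 CPM. Adipocyte sums were then 289 to 915 CPM and 127 to 216 CPM, and tendon cell sums 293 to 476 CPM and 49.6 to 68.6 CPM. Macrophage sums were 26.5 to 102 CPM and 17.1 to 34.7 CPM, and endothelial sums 325 to 402 CPM and 263 to 339 CPM. At 2 weeks the ranges were 316 to 3823 CPM and 303 to 478 CPM for fibroblast markers. None of these markers was without a count in all libraries. Their part in the levels of the 5 collagen genes was not tested.

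Each gene was also set beside the genes whose log2 CPM was most like its own over the 33 libraries, among those with a symbol and an average log2 CPM of at least 1. For COL6A2 these were FKBP10, COL3A1 and COL16A1, each with r = 0.97, and with 0.96 after group means were removed. For COL6A6 they were GLCE (0.90), PCSK5 (0.90) and GRIA3 (0.89), which kept 0.85, 0.89 and 0.89 within groups. For COL23A1 they were SDK1, HNMT and CCND2 (0.85, 0.85 and 0.84), with 0.73, 0.71 and 0.69 within groups. The most like COL4A3 were MADD, TRO and RBM3 (0.75, 0.73 and 0.72), which fell to 0.42, 0.18 and 0.13 within groups. For COL25A1 they were GNAI1, SELENBP1 and ARMCX2 (0.73, 0.71 and 0.70), with 0.52, 0.57 and 0.37 within groups. The collagen VI genes and COL23A1 thus kept most of their likeness among libraries of the same group, and COL4A3 did not. All values share the libraries and their depth.

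**Figure D5:**
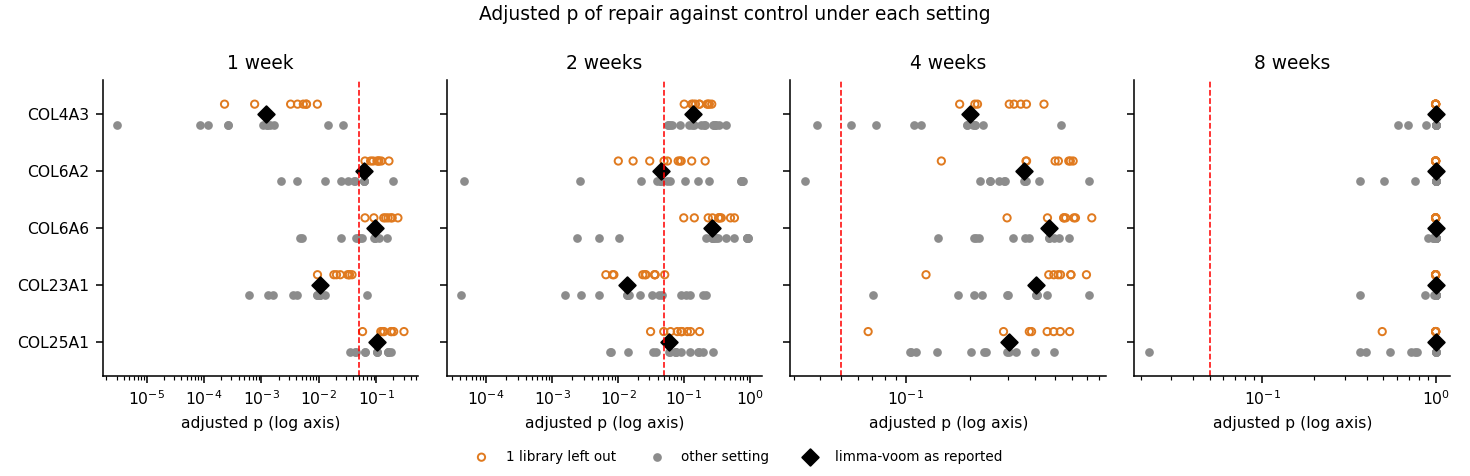
Adjusted p of repair against control for the 5 genes at each time (log axis), in the fit reported (diamonds), with 1 library of that time left out (open circles) and under each other setting (grey points); the dashed line is 0.05. COL4A3 at 1 week stays left of the line in each case, COL6A2 at 2 weeks falls on both sides, and at 8 weeks 1 setting puts COL25A1 left of the line.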

How the data were processed

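RNA of 34 muscle libraries was sequenced as 75 bp single reads after stranded, poly(A)-selected library preparation. Per the study's methods, the authors aligned reads with STAR to the rabbit genome OryCun2.0 and counted them with RSEM on the Ensembl annotation; the deposited values are expected counts per gene, unscaled. Groups came from the labels, whose time code was taken to give the tenotomy weeks first and then the time since repair, and 0 columns were left unused. Symbols are those of human orthologs in the study's supplementary tables, as far as they could be had here (3310 of 12937 genes tested). The supplement describes a symbol mapping for all genes recorded, so a gene left unmatched here may be matched there. No identifier was matched for the Schwann cell list, and no sequence is shown.

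Genes above 1 CPM in any library, scaled by its total alone, were kept, CPM was then computed with TMM factors from edgeR 4.0.16, and limma-voom (limma 3.58.1 under R 4.3.3) estimated a coefficient for every group. Adjusted p-values follow Benjamini-Hochberg over the whole table of tested genes. Counts were rounded for edgeR's quasi-likelihood test and DESeq2 1.42.0. Figures used matplotlib 3.10.9. The fit was tested on simulated data. Other settings were all 34 libraries, other scalings and filters, both count tests, the rabbit as a block or random effect, sample weights, each time alone, and each library left out; leaving out rabbits 59 and 62 together was added after seeing the data, alone and with the block, the random effect and both count tests. Rabbits pair the shoulders because they are the same animal; residuals of the 2 shoulders correlated at 0.0351 to 0.371 in 16 rabbits, and the correlation estimated over all genes was 0.174. No library duplicated another (highest r 0.979).

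The members and the gene lists were chosen with earlier results of these data known. Named were the 5 members, every listed collagen and basement membrane glycoprotein tested, for other lists the 2 genes of smallest adjusted p for the mean effect, and for each member the 3 genes most like it. Counting intervals and floors (95%, 3 counts) cover counting error only.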

Additional observations from a re-analysis of the deposited data

Results flagged for a closer look

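COL25A1 stood out within a control group in 2 cases, where 1 library lay far from the other 3. At 8 weeks the control of rabbit 3 was high, its gap to the next library being 0.836 of the group's range, and at 4 weeks the control of rabbit 63 was high, with a gap of 0.952. Each of these libraries held 2 counts of COL25A1 and the others of its group 0, so the gaps rest on 2 reads. In 35 groups of values tested in this way, chance gives about 1.75 such cases.

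The left library of rabbit 3, which entered only the fits with all 34 libraries, held COL6A2 at 1575 CPM, COL23A1 at 19.2 CPM and COL25A1 at 0.228 CPM, each above every control library of 8 weeks, while COL4A3 was at 0 CPM and COL6A6 at 0.685 CPM. These levels are scaled by the library total alone, 8756033 counts, and the value of COL25A1 is 2 counts. Since the study dropped an experimental sample of 8 weeks at read quality control, they are not read as an effect of repair.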

How the results depend on the processing

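The mean effect was called for all 5 genes under each setting, except that COL6A6 was lost, leaving 4, without rabbits 59 and 62 together (adjusted p = 0.0520, though 5 were called there with the block, the random effect, edgeR or DESeq2) or without the control of rabbit 66 (adjusted p = 0.0527); leaving out 1 library gave 4 to 5 (18.9% to 24.4% of all genes called higher). Under the settings other than 1 library left out, the share of all genes called higher for the mean ran from 15.2% with no filter to 44.7% with plain CPM. COL25A1 is among the members counted, and its call is not counted as support. Time-dependence stayed at 0 members throughout.

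Brackets give the share, or number, of all genes called higher under the same setting. Where COL25A1 is in a count, its call is not counted as support, since it passed the main filter through repair libraries only. At 1 week 2 members were called (6.81%); the number was 1 with all 34 libraries (1.49%), 5 with plain CPM (29.8%), 4 with edgeR (6.08%), 4 with DESeq2 (8.33%), 5 with the rabbit as a replicate block (14.8%), 3 with the rabbit as a random effect (11.3%), 3 with the libraries of that time alone (12.5%) and 5 with sample weights (18.8%), and leaving out 1 library of that time gave 2 to 2 (2.06% to 6.79%). At 2 weeks (2 called, 7.95%) it was 1 with all 34 libraries (2.09%), 1 with plain CPM (5.35%), 4 with edgeR (2586 genes), 4 with DESeq2 (20.8%), 4 with the replicate block (19.2%), 3 with the random effect (1684 genes), 1 with sample weights (3.28%), 0 with the libraries of that time alone (0.0317%) and 0 without rabbits 59 and 62 (0.0561%), where it was 0 with the replicate block, the random effect or edgeR and 1 with DESeq2; leaving out 1 library gave 0 to 3 (1.21% to 15.3%). With no filter it was 2 (5.33%), but COL25A1 (adjusted p = 0.0380) was called in place of COL6A2 (adjusted p = 0.0557). At 4 weeks (0 called) it was 1 with DESeq2 (COL4A3, 3.30%) and 1 with sample weights (COL6A2, 4.77%), and at 8 weeks (0 called) 1 with sample weights (COL25A1, 0.394%); leaving out 1 library gave 0 to 0 at both. The block changed no other count. The cause was not tested.

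The sign turned for COL4A3 (-0.38) and COL6A6 (-0.10) at 8 weeks with all 34 libraries, for COL6A6 at 8 weeks without the control of rabbit 4 (-0.14, within -0.14 to 0.45 over the libraries left out), and for COL6A6 at 2 weeks without rabbits 59 and 62 (-0.38, and -0.30, -0.25 and -0.26 with the random effect, edgeR and DESeq2). Libraries of other times also moved borderline calls: COL6A2 at 1 week was called without the repair library of rabbit 59 (adjusted p = 0.00970), 60, 64 or 68, COL6A6 at 1 week without that of rabbit 59 (adjusted p = 0.0324), COL25A1 at 2 weeks without that of rabbit 68 (adjusted p = 0.0365), and COL6A2 at 2 weeks was lost (adjusted p 0.0501 to 0.0508) without any 1 of the 8 controls of 1 and 8 weeks or the repair library of rabbit 2.

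Plain CPM moved the median log2FC of all genes by 0.42, 0.24, 0.27 and 0.10 at 1, 2, 4 and 8 weeks. Depth limits COL25A1 most, with 9 or fewer control counts at each time.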
